A study of Mus musculus with 6 samples.

Results

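Homologous recombination repairs DNA double-strand breaks by copying the intact sister chromatid, and the Fanconi pathway calls on the same proteins to unhook crosslinks between the strands. The list followed here holds 41 such genes, chosen by name. Of these, 39 had a probe set that the gene table of the platform assigns to that gene alone, out of 19938 genes with a probe set of their own. The brightest probe set was taken for a gene with several, by the mean of the 6 arrays. Rbbp8 and Xrcc2 had no such probe set in the table used and were not analysed here. Expression was measured in C1498, a mouse cell line of C57BL/6J background that the labels call acute myeloid leukemia cells. All cells were grown in DMEM with fetal bovine serum. PJ34, a small-molecule inhibitor of PARP-1, was given at 20 μM for 48 h to the cells of 3 arrays, and PBS was given for 48 h to those of the other 3, which the sample titles call untreated. The paper speaks of independent experiments without describing them, and the p-values measure the spread between these arrays, which may be technical.

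PARP-1 binds nicked DNA and helps to repair single-strand breaks. Breaks that persist when PARP-1 is blocked can turn into double-strand breaks at replication forks, and cells that lack BRCA1 or BRCA2 are known to be sensitive to PARP inhibitors for that reason. In recombination, the broken end is first cut back to single-stranded DNA, which is coated by replication protein A. BRCA1, PALB2 and BRCA2 then help to load the recombinase that searches for the matching sequence. In the Fanconi pathway, a core complex attaches ubiquitin to FANCD2 and FANCI, and nucleases then cut beside the crosslink. The values are log2 expression values per probe set. They compare arrays for one gene and are not read here as an order of abundance between genes.

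All 39 genes lay above 4.42, the median over all probe sets of their mean log2 values, as did 54.2% of the 23410 probe sets that have a gene. Their mean log2 values in the PBS arrays ran from 5.37 (Mus81) to 9.59 (Topbp1). The medians of the 6 arrays lay between 4.41 and 4.46. The label was also set against marker genes. Of 24 myeloid markers, 7 lay above the median level, namely Fcgr1, Fcgr3, Cd68, Cebpa, Cebpe, Csf2ra and Ncf1. The other 17 did not, among them Mpo, Elane, Csf1r, Spi1 and Cd33. Of 27 markers of T and NK cells, 12 did and 15 did not. Cd3g and Cd3e, subunits of the T cell receptor complex, had PBS means of 11.1 and 10.4, while Cd2, Cd4 and Cd8a lay below the median level. The mean log2 value of the T and NK list was 5.28 to 5.29 on the PBS arrays and 5.48 to 5.50 on the PJ34 arrays. By limma, Cd7, Cd28, Cd4, Il7r, Gzma and Gata3 of this list rose and Bcl11b fell (25.9% of the list), and Fcgr1 and Cd68 of the myeloid list rose (8.33%), beside 3.06% of all probe sets. The methods' t-test, adjusted in the same way, left 3 higher and 0 lower of the T and NK list and 0 of the myeloid list. None of 9 B cell markers, 2 of 8 erythroid and megakaryocyte markers and 3 of 9 fibroblast markers lay above the median level. The part of these markers in the differences below was not tested.

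With PJ34, the differences of the recombination and Fanconi genes were small. Brca2 fell, none of the 39 rose, and 38 did not pass an adjusted p of 0.05 from limma. Of the 23410 probe sets compared, 3.06% passed in either direction, 1.72% higher and 1.34% lower, against 1 of 39 members (2.56%), so that the share of members was near that background. The log2 differences, PJ34 minus PBS, ran from -0.38 to 0.21 with a median of -0.028, beside a median of 0.0029 over all probe sets compared. They were below 0 for 26 genes and above 0 for 13, against 49.0% below 0 among all probe sets. The 95% confidence interval lay inside a 1.5-fold change in either direction for all 39 genes, as it did for 96.7% of all probe sets. An unadjusted p under 0.05 was met by 12 members (30.8%), 8 lower and 4 higher. Among all probe sets 16.7% met it, 7.74% lower and 8.95% higher. With probe sets below the median level left out of the fit, 12 members met it, against 28.6% of the 12696 probe sets then tested. The 3 PJ34 values did not overlap the 3 PBS values for 13 members (33.3%), 9 lower and 4 higher, against 23.5% of all probe sets, 10.9% lower and 12.6% higher. The share of groups that did not overlap was not taken over the brighter probe sets alone. No test was run of the members' shares against those of all probe sets. With 3 arrays a group, 0.1 is the smallest two-sided p that an exact permutation test can give for a single gene.

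**Figure D1:**
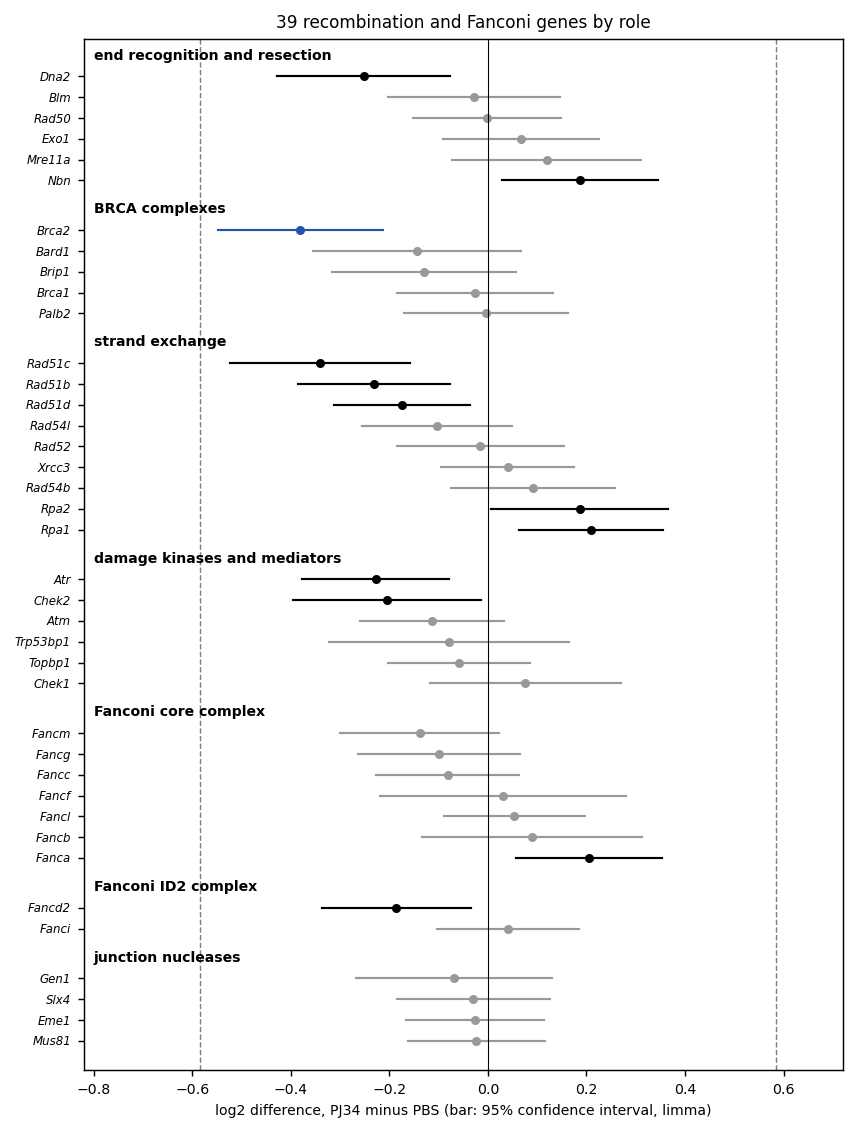
Log2 difference, PJ34 minus PBS (horizontal axis), of the 39 genes in 7 groups by role, with 95% confidence intervals from limma as bars and dashed lines at a 1.5-fold change. Brca2 (blue) passed the adjusted test, black genes had an unadjusted p under 0.05 and grey genes did not, and no bar reaches a dashed line.

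The 5 members grouped as BRCA complexes all had a log2 difference below 0, and Brca2 was the 1 of these 5 that passed. BRCA2 carries the recombinase to single-stranded DNA. Brca2 had log2 values of 7.76, 7.67 and 7.67 on the PBS arrays and of 7.20, 7.40 and 7.36 on the PJ34 arrays. Every PJ34 value lay below every PBS value, and PJ34 replicate 1 was the lowest. The log2 difference was -0.38 (SE 0.074, adjusted p = 0.0328 from limma), which is a ratio of 0.768 with a 95% confidence interval of 0.684 to 0.863. The size of the difference was steady when 1 array was left out at a time, at -0.42 to -0.32, but the call was not. It was kept without PJ34 replicate 2 (adjusted p = 0.0444) and lost in the other 5 fits. The adjusted p from limma was 0.116 without PBS replicate 1, 0.103 without PBS replicate 2, 0.103 without PBS replicate 3, 0.103 without PJ34 replicate 1 and 0.0771 without PJ34 replicate 3. Over all 13 alternatives tried for Brca2 it ran from 0.00242 to 0.119.

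Brca1, a ubiquitin ligase that acts at the start of the pathway, lay close to its PBS level. Its values were 7.13, 7.17 and 7.16 with PBS and 7.11, 7.23 and 7.04 with PJ34, and the groups overlapped. The log2 difference was -0.026 (95% confidence interval -0.19 to 0.13). Palb2 encodes the protein that joins BRCA1 to BRCA2, and its difference was -0.0037 (-0.17 to 0.16). Its values were 5.49, 5.50 and 5.54 with PBS and 5.58, 5.55 and 5.38 with PJ34, so that PJ34 replicates 1 and 2 lay above the PBS arrays and replicate 3 below them. Bard1, the partner of BRCA1, had a difference of -0.14, and Brip1, a helicase bound to BRCA1, had -0.13. Bard1 has 2 further probe sets with differences of -0.11 and -0.21, all 3 below 0 and none passing.

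None of the 9 genes of strand exchange passed, and 5 had a difference below 0 and 4 above. Rad51c, Rad51b and Rad51d encode relatives of the recombinase that help it to form filaments, and all 3 lay lower on every PJ34 array than on any PBS array, though none passed. Rad51c had log2 values of 6.86, 6.76 and 6.71 with PBS and of 6.36, 6.58 and 6.37 with PJ34. This was the second-largest difference of the 39, at -0.34 (SE 0.080, adjusted p = 0.0636 from limma). Without PJ34 replicate 2, its highest PJ34 array, Rad51c passed at -0.41 (adjusted p = 0.0353 from limma). Other limma fits that called Rad51c were those with array weights (adjusted p = 0.0222), with dim probe sets left out (adjusted p = 0.0189) and with robust eBayes and a trend on intensity (adjusted p = 0.0131). The highest value among the 13 alternatives was 0.19. Rad51b had values of 5.50, 5.56 and 5.50 with PBS and 5.27, 5.39 and 5.22 with PJ34, a difference of -0.23 (SE 0.068, adjusted p = 0.12 from limma). Rad51d had values of 6.99, 6.94 and 6.89 with PBS and 6.76, 6.77 and 6.77 with PJ34. Its 3 PJ34 arrays were nearly equal, and its difference was -0.17 (SE 0.060, adjusted p = 0.186 from limma). Xrcc3, which pairs with RAD51C, had a difference of 0.040.

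Of the 3 subunits of replication protein A, Rpa1 and Rpa2 had higher values on each PJ34 array than on any PBS array, and none of the 3 passed. Rpa1, the large subunit that holds the single strand, had values of 7.76, 7.85 and 7.89 with PBS and 8.01, 8.06 and 8.06 with PJ34. The difference was 0.21 (SE 0.064, adjusted p = 0.133 from limma). Rpa2, the subunit that damage kinases phosphorylate, had values of 7.98, 8.15 and 8.20 with PBS and 8.25, 8.39 and 8.26 with PJ34. PBS replicate 1 lay apart below the other 2 PBS arrays, and the difference was 0.19 (SE 0.079, adjusted p = 0.28 from limma). The small subunit Rpa3, taken from the further genes of the pathway, had values of 7.81, 8.05 and 8.08 with PBS and 7.796, 8.17 and 7.96 with PJ34. Its groups overlapped, with a difference of -0.0023 (95% confidence interval -0.25 to 0.25). Rad52, which anneals single strands, had values of 6.21, 6.36 and 6.28 with PBS and 6.25, 6.37 and 6.19 with PJ34. Its groups overlapped throughout, with a difference of -0.015 (95% confidence interval -0.18 to 0.15). The motor proteins Rad54l and Rad54b, which remodel DNA during strand exchange, had differences of -0.10 and 0.091.

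**Figure D2:**
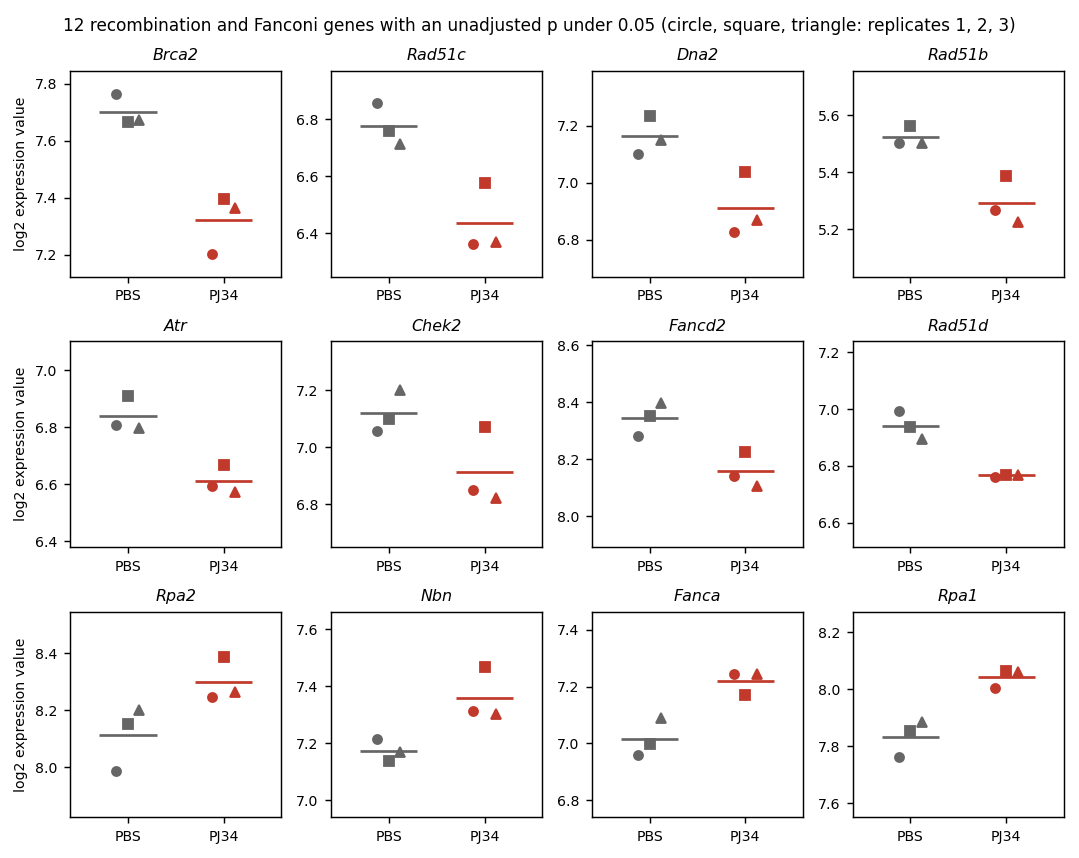
Log2 expression value (vertical axis, the same span in each panel) of the 12 genes with an unadjusted p under 0.05 by array. Grey marks PBS, red marks PJ34, the marker shape gives replicate 1, 2 or 3, and a line shows each group mean. In 11 of the 12 panels the groups do not overlap, and in that of Chek2 PJ34 replicate 2 lies among the PBS arrays.

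Among the genes that recognise and cut back broken ends, none of 6 passed, and their differences went both ways. The nuclease and helicase Dna2, which makes long single-stranded tails, had values of 7.10, 7.24 and 7.15 with PBS and 6.83, 7.04 and 6.87 with PJ34. All 3 PJ34 arrays were lower, with a difference of -0.25 (SE 0.077, adjusted p = 0.133 from limma). The other long-range nuclease, Exo1, had 0.067, and the helicase Blm had -0.028. Nbn, Mre11a and Rad50 encode the complex that finds the end. Nbn had values of 7.21, 7.14 and 7.17 with PBS and 7.31, 7.47 and 7.30 with PJ34, a difference of 0.19 (SE 0.069, adjusted p = 0.215 from limma). All 3 PJ34 arrays were higher on this probe set, and a dimmer second probe set of Nbn had overlapping groups and a difference of 0.055. Mre11a, the nuclease of the complex, had values of 7.93, 7.95 and 7.81 with PBS and 7.94, 8.17 and 7.94 with PJ34. PJ34 replicate 2 alone stood above the PBS arrays, and the difference was 0.12 (95% confidence interval -0.073 to 0.31). Rad50, which holds the ends together, had a difference of -0.0017.

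None of the 6 genes of the damage kinases and their mediators passed, and 5 had a difference below 0. ATM responds to double-strand breaks and ATR to single-stranded DNA at stalled forks. Atr had values of 6.81, 6.91 and 6.80 with PBS and 6.59, 6.67 and 6.57 with PJ34. The groups did not overlap, and the difference was -0.23 (SE 0.065, adjusted p = 0.113 from limma). Atm had values of 8.063, 8.040 and 7.996 with PBS and 7.913, 7.985 and 7.860 with PJ34. They did not overlap either, by a narrow gap, and the difference was -0.11 (95% confidence interval -0.26 to 0.032).

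The kinases that ATM and ATR activate had differences of opposite sign. Chek2, the target of ATM, had values of 7.06, 7.10 and 7.20 with PBS and 6.85, 7.07 and 6.82 with PJ34. PJ34 replicates 1 and 3 lay below the PBS arrays and replicate 2 within them, with a difference of -0.20 (SE 0.084, adjusted p = 0.262 from limma). Chek1, the target of ATR, had values of 8.61, 8.68 and 8.56 with PBS and 8.62, 8.86 and 8.60 with PJ34. PJ34 replicate 2 was its highest array, the groups overlapped, and the difference was 0.076 (95% confidence interval -0.12 to 0.27). Without that array it was -0.0092. Trp53bp1, which shields ends from being cut back, had values of 7.39, 7.52 and 7.39 with PBS and 7.39, 7.55 and 7.13 with PJ34. PJ34 replicate 3 was low and the other 2 lay close to PBS values, and the difference was -0.079 (95% confidence interval -0.32 to 0.16). Topbp1, which switches ATR on, had a difference of -0.059.

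None of the 9 members from the Fanconi core complex and the pair that it modifies passed. Fanca, a subunit of the core complex, had values of 6.96, 6.997 and 7.09 with PBS and 7.24, 7.17 and 7.24 with PJ34. All PJ34 values were higher, with a difference of 0.20 (SE 0.065, adjusted p = 0.149 from limma). The other 6 members from the core complex ran from -0.14 for the translocase Fancm to 0.090 for Fancb, with 0.054 for the ubiquitin ligase Fancl. Fance, a subunit of the core complex taken from the further genes of the pathway, lay outside that range. It was lower on every PJ34 array than on any PBS array, with a difference of -0.23 (SE 0.084, adjusted p = 0.214 from limma). Fancd2, one of the modified pair, had values of 8.28, 8.35 and 8.40 with PBS and 8.14, 8.23 and 8.11 with PJ34. These did not overlap, and the difference was -0.19 (SE 0.066, adjusted p = 0.196 from limma). Its partner Fanci had values of 6.76, 6.78 and 6.76 with PBS and 6.80, 6.88 and 6.75 with PJ34. Its groups overlapped, with a difference of 0.041 (95% confidence interval -0.10 to 0.19). The 4 members grouped as nucleases that cut joined DNA molecules or crosslinks ran from -0.069 (Gen1) to -0.023 (Mus81), with the scaffold Slx4 and Eme1 between them. This was the narrowest range of the groups by role and depends on which genes were listed. Nuclease genes among the further genes of the pathway lay outside it, with Fan1 and Slx1b both at -0.089, Ercc1 at 0.020 and Ercc4 at 0.099. Of the 19 members not shown array by array, 18 had overlapping groups, and their adjusted p ran from 0.383 to 0.994 from limma. Fancm was the exception, lower on each PJ34 array.

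**Figure D3:**
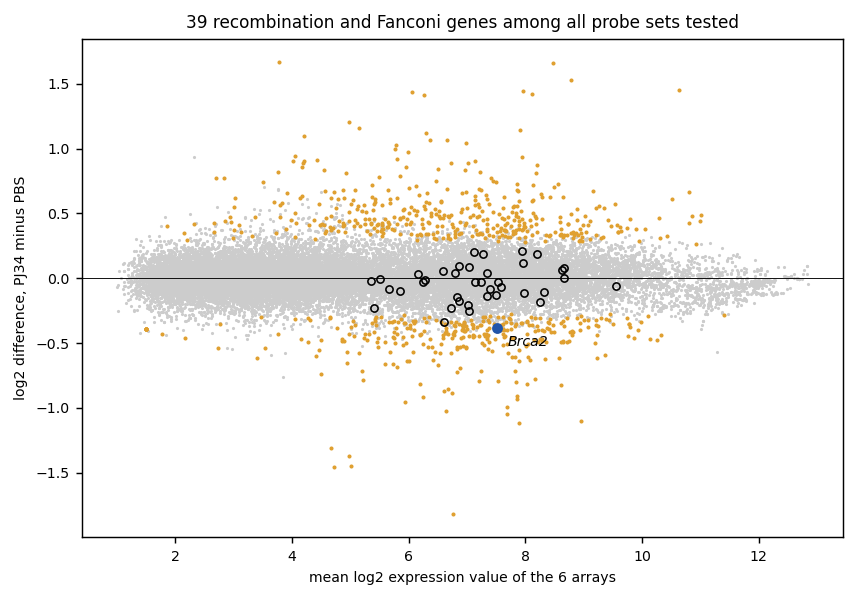
Mean log2 expression value over the 6 arrays (horizontal axis) and log2 difference of PJ34 from PBS (vertical axis), with the 23410 probe sets in grey, those at an adjusted p under 0.05 in orange, the 39 recombination and Fanconi genes as open circles and Brca2 in blue. The 39 genes lie between -0.38 and 0.21.

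The PJ34 arrays did not have these genes at one level. PJ34 replicate 2 was the highest of the 3 PJ34 arrays for 34 of the 39 genes (87.2%), against 36.3% of all probe sets and 51.3% of those above the median level. PJ34 replicate 3 was the lowest for 24 of them. The median of the 39 differences from the PBS mean was -0.047 on PJ34 replicate 1, 0.041 on replicate 2 and -0.11 on replicate 3. No PBS array had as wide a lead, with 11, 15 and 13 genes highest on replicates 1, 2 and 3. The same array was the highest for 31 of 40 genes of the G2/M step and mitosis (77.5%) and 28 of 46 genes of replication and the G1/S step (60.9%). It was so for 44 of 61 further recombination and Fanconi genes (72.1%) and for 5 of 5 mismatch repair genes. The shares were lower for end joining (6 of 11, 54.5%), nucleotide excision repair (7 of 16, 43.8%) and base excision and single-strand break repair (8 of 23, 34.8%). The part of cell cycle stage in these values was not tested. Without PJ34 replicate 2, the median log2 difference of the 39 genes was -0.079 and 28 lay below 0. Without PJ34 replicate 3 the median was 0.012 and 18 lay below 0, so that the side of 0 on which the median lay rested on replicate 3.

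**Figure D4:**
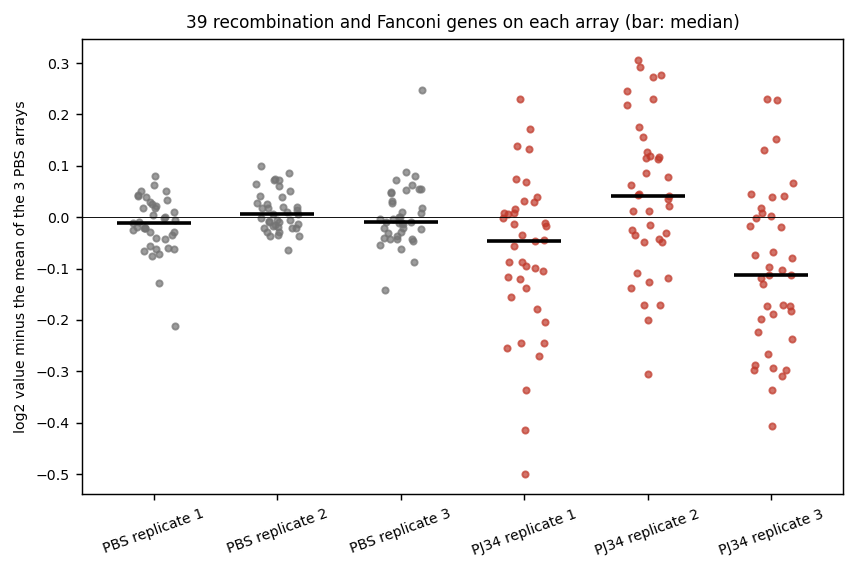
Log2 value minus the mean of the 3 PBS arrays (vertical axis) for the 39 genes on each array, PBS in grey and PJ34 in red, with bars at the medians. The PBS points are tight in part because they are measured from their own mean, and the median of PJ34 replicate 2 lies above 0 while those of replicates 1 and 3 lie below it.

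Promoters of 33 of the 39 genes were found in the RefSeq promoter table (GRCm38.p6), as 250 bases before and 50 after each start site. They were searched on both strands for words of the E2F site, which many genes of S phase carry, namely TTTCCCGC, TTTCGCGC, TTTGCCGC and TTTGGCGC. Words could overlap. Of the 33 genes, 6 held at least 1 such word (18.2%), against 2.6% of the 27025 genes in the table. That background includes genes that were not measured or were dim. Among measured genes above the median level, as all members are, 439 held a word and 8185 did not. That is a larger share than 2.6%, so the contrast with all genes overstates the contrast with genes of like level. The 6 genes are named next. They were Brca2, Rad51c, Chek2, Bard1, Topbp1 and Fancg, and all 6 had a log2 difference below 0, with a median of -0.17 and a range of -0.38 to -0.059. Of the 27 genes without a word, 17 lay below 0 and 10 above, with a median of -0.026. Over all 541 measured genes with a word the median was -0.0062 and 51.2% lay below 0, beside 0.0056 and 48.1% of the 15022 genes without one. A match is a description of letters and not a bound site. The CCAAT box (CCAAT) was found in 18 of the 33 (54.5%, against 41.1% of all genes), of which 11 lay below 0 and 7 above, with a median of -0.027. The CHR word TTTGAA was found in 3 (9.09%, against 20.2%), all 3 below 0.

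The stretches with an E2F word are shown for the 6 genes, as these include the 2 largest differences of the list. They read from 5′ to 3′ on the strand of the gene, with the word, on either strand, in capitals. For Brca2 all 250 bases before the start are given (chr5:150522371-150522620, plus strand), and the word begins 168 bases before it.
Brca2: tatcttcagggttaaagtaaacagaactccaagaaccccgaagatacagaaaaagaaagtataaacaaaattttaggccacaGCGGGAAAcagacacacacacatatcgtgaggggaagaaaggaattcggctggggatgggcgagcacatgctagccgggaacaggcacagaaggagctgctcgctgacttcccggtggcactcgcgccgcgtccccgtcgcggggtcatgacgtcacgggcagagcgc
Rad51c has 2 start sites in the table, each with a word (chr11:87404477-87404506 and chr11:87404945-87404974, minus strand). The word begins 11 bases after the first start site and 5 bases before the second.
Rad51c, first start site: gtttccagcgcTTTCGCGCctcttgctcta
Rad51c, second start site: caatcccccgcgaggGCGGGAAAagcaagg
The words of Chek2 (chr5:110839805-110839864, plus strand), Bard1 (chr1:71103148-71103207, minus), Topbp1 (chr9:103305172-103305231, plus) and Fancg (chr4:43010320-43010379, minus) begin 152, 209, 129 and 52 bases before the start.
Chek2: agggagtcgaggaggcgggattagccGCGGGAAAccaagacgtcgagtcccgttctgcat
Bard1: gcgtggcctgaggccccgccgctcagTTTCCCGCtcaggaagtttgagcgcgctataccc
Topbp1: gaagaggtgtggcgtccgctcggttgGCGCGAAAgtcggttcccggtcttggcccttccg
Fancg: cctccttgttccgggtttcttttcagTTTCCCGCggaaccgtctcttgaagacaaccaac

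The 60 bases before the start are also shown for Rpa1 (chr11:75348384-75348443, minus strand) and Fanca (chr8:123318577-123318636, minus strand), the 2 genes with the largest differences above 0. Neither held an E2F word in the window searched, nor did Dna2 and Atr, whose differences lay below 0. Both held the CCAAT box, here in capitals, as did the 11 genes below 0 counted above.
Rpa1: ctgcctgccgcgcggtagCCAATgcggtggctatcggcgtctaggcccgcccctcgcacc
Fanca: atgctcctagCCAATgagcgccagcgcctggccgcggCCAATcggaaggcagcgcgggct

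Further genes of recombination, the Fanconi pathway and fork protection gave a like picture. Of 71 listed, 61 were measured, 1 rose and 1 fell (3.28%, beside the 3.06% of all probe sets), and their median log2 difference was -0.029. Nabp1, a single-strand binding protein related to replication protein A, had values of 7.97, 8.005 and 7.92 with PBS and 8.51, 8.72 and 8.55 with PJ34. All PJ34 values were higher, and it rose by 0.63 (SE 0.074, adjusted p = 0.0052 from limma), more than any of the 39 genes. Sfr1, a partner that stabilises the recombinase on DNA, had values of 9.45, 9.36 and 9.32 with PBS and 8.997, 9.12 and 9.05 with PJ34. It fell by 0.32 on the log2 scale (SE 0.068, adjusted p = 0.0441 from limma). With 1 array left out, this list held 1 gene higher in each of the 6 fits and 1 gene lower only in the fit without PJ34 replicate 2, and the methods' t-test called 0 in either direction. An unadjusted p under 0.05 was met by 13 of the 61 (21.3%, against 16.7% of all probe sets), 11 lower and 2 higher. Of the 61, 59 lay above the median level, and 28.6% of probe sets met it in the fit without dim ones. Among the 11 were Mcm8 (-0.29), a helicase of recombination, and Hus1 (-0.24), a subunit of the clamp that signals to ATR. Parp1, the gene of the enzyme that PJ34 inhibits, had values of 9.13, 9.20 and 9.18 with PBS and 9.13, 9.17 and 9.02 with PJ34, a difference of -0.066 (95% confidence interval -0.22 to 0.086). Parp2, its closest relative in break repair, had a difference of -0.081 (-0.25 to 0.088). The groups overlapped for both.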

How the data were processed

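RNA from C1498 cells given PJ34 (20 μM) or PBS for 48 h was hybridised to Affymetrix GeneChip Mouse Gene 1.0 ST arrays, 3 per group, grouped by the labels. The authors deposited log2 expression values, which the submitters' processing notes credit to Affymetrix Expression Console 1.3.1 and RMA (background correction, quantile normalization and summary per probe set). The build behind the probe sets is not given in the sources used here. The number of arrays limits the precision.

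The 23410 probe sets with a gene were fitted with limma 3.58.1 in R 4.3.3 (lmFit, eBayes), PJ34 minus PBS, with Benjamini-Hochberg adjustment and a threshold of 0.05, and the code was tested on simulated data. Alternatives changed the centring, variance model, filter, probe sets tested, test, array weights, replicate block or arrays included. Values per array are given for genes with p under 0.05, adjusted or not, and for a fixed set (Brca1, Brca2, Palb2, Atm, Atr, Chek1, Chek2, Fancd2, Fanci, Mre11a, Rad52 and Trp53bp1). From the other lists, genes passing the adjusted test are named, and Parp1 and Parp2. Mcm8, Hus1, Rpa3, Fance, Fan1, Slx1b, Ercc1, Ercc4, the markers that did not pass, Xrcc4 and Xrcc6 were named after their values were seen. The members and lists were chosen with earlier results of these data known.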

Additional observations from a re-analysis of the deposited data

How the results depend on the processing

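The direction was kept in all alternatives run for 15 of the 20 members given array by array. The others crossed 0 when 1 array was left out, with log2 differences of -0.079 to 0.017 for Brca1, -0.043 to 0.059 for Palb2, -0.0092 to 0.12 for Chek1, -0.18 to 0.036 for Trp53bp1 and -0.066 to 0.025 for Rad52. Palb2 was also above 0, at 0.012, without PBS replicate 3, and Rad52, at 0.021, without PBS replicate 2. The 95% confidence interval lay inside a 1.5-fold change for 37 to 39 of the 39 members with 1 array left out and for all 39 in the other fits. The count of calls depended on the fit. With each array centred on its median 332 probe sets were higher and 365 lower, against 402 and 314 without it, so that the balance turned. With an intensity trend and robust eBayes 8.24% of all probe sets passed. Of the members 1 was higher (Rpa1) and 3 were lower (Brca2, Rad51c and Dna2). Among all probe sets 1008 were higher and 920 lower, and 5 further recombination genes were lower. With dim probe sets left out these counts were 2 and 5, 891 and 776, and 5. Only 12696 probe sets were tested in that fit, and 13.1% of them passed, beside 7 of the 39 members. Those members were Rpa1 and Fanca, higher, and Brca2, Rad51c, Rad51b, Dna2 and Atr, lower. With all 35556 probe sets tested 0 members were lower, with 112 higher and 76 lower in all and 0 further recombination genes lower. The methods' t-test called 0 members, 78 probe sets higher and 62 lower, and 0 further recombination genes in either direction. With array weights 4 members (Brca2, Rad51c, Rad51b and Dna2), 564 probe sets and 2 further recombination genes were lower. In that fit 4.72% of all probe sets passed in either direction. With 1 array left out 0 to 2 members, 79 to 320 probe sets and 0 to 1 further recombination genes were lower, and 143 to 281 probe sets were higher. The largest counts were those without PJ34 replicate 2, and members higher stayed at 0. Taking the mean of a gene's probe sets changed no count of members.

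Deviations of arrays of the 2 groups that share a replicate number had correlations of -0.013, 0.13 and -0.0089 across probe sets. Pairs with different numbers ran from -0.147 to 0.145. With 3 arrays a group, these values cannot tell whether a shared number stands for a shared experiment, and the labels do not say. With the replicate number as a block, 0 members, 140 probe sets and 0 further recombination genes were lower and 219 probe sets were higher. Depth is not defined for these arrays, and the 6 arrays limit the precision.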

Other observations

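The other DNA repair lists held few calls at an adjusted p under 0.05. None of 11 end joining genes passed the adjusted limma test, and 0 passed the methods' t-test after adjustment. At an unadjusted p under 0.05, 5 were lower and 1 higher (54.5% of the list, against 16.7% of all probe sets). Of the 11, 10 lay above the median level, and 28.6% of probe sets met it in the fit without dim ones. No test was run of these shares. Xrcc4, a cofactor of the ligase of end joining, had the largest difference of that list at 0.35 (SE 0.091, adjusted p = 0.0872 from limma), and Xrcc6, a subunit of the Ku end-binding dimer, had -0.20. None of 23 genes of base excision and single-strand break repair passed limma or the methods' t-test, with 2 lower at an unadjusted p under 0.05, nor did any of 16 genes of nucleotide excision repair, with 3 higher and 3 lower. Pms1, a mismatch repair gene, fell by 0.36 on the log2 scale (SE 0.073, adjusted p = 0.0405 from limma), and the methods' t-test called 0 of the 5 mismatch repair genes.

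Of 46 genes of replication and the G1/S step, Tk1, a kinase of thymidine salvage, fell by 0.49 on the log2 scale (adjusted p = 0.0341 from limma), and Rfc4, a subunit of the clamp loader, fell by 0.31 (adjusted p = 0.0365). The methods' t-test called 0 of the 46. The median of that list was -0.014. An unadjusted p under 0.05 was met by 15 of its genes (32.6%), 9 lower and 6 higher, a share near the 30.8% of the 39 recombination and Fanconi genes. It was met by 16.7% of all probe sets and by 28.6% in the fit without dim ones. All 46 genes lay above the median level, as did the 39. Among 31 targets of p53, 2 rose and 3 fell by limma (16.1%, beside 3.06% of all probe sets), and the methods' t-test left 1 higher and 0 lower. Trp53inp1, which promotes p53 activity, rose by 0.91, and Btg2, which slows proliferation, rose by 0.84. Gadd45a, a stress sensor, fell by 0.47 on the log2 scale, Sesn2, which responds to stress, by 0.40, and Bbc3, an activator of apoptosis, by 0.33. Of the 40 genes of the G2/M step and mitosis, none passed limma or the methods' t-test. At an unadjusted p under 0.05, 4 were higher and 1 lower (12.5%, against 16.7% of all probe sets and 28.6% in the fit without dim ones). Fits with 1 array left out were not examined for the genes named here.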
